A study of Mus musculus with 24 samples.

Results

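The genes described here are 10 imprinted genes of the mouse, 10 of the 23017 genes in the deposited table, found by their symbols: Peg3, Peg3os, Zim1, Mest, Plagl1, Igf2, H19, Cdkn1c, Dlk1 and Sgce. Each had a single row in the table. They were chosen by symbol with earlier results on the same log2 values in view, among them the group differences of Peg3os, which gives the set its name. Its values are therefore given as a description, with no test. The libraries were made from polyA RNA of brown fat of C57BL/6J mice and numbered 24, with 4 groups of 6. TZP mice received tirzepatide, an agonist of the receptors for the gut hormones GIP and GLP-1. LAGIPRA mice received a GIP receptor agonist of long action. PairFedVehicle mice received vehicle and had their food matched to that of another group, and Vehicle mice received vehicle with no pair feeding. Age, sex, diet, dose, length of treatment and the group that set the pair-fed amount are not given in the sources used here, nor is any allele besides the strain. Nothing in the labels says how many animals stand behind a library, so the p-values measure the spread between these samples.

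Imprinted genes are read mainly from a single parental copy, and which copy is read depends on DNA methylation laid down in the egg or sperm. They lie in clusters, in which a differentially methylated control region acts on several neighbours at once. Many of them act on growth, on fat and muscle precursors and on energy balance. Of the genes here, Peg3, Mest, Plagl1, Igf2, Dlk1 and Sgce are known to be read from the paternal copy in the mouse, and H19, Cdkn1c and Zim1 from the maternal copy. Peg3os is an RNA read from the strand opposite Peg3. In the RefSeq annotation it is an antisense RNA spanning 865 bases. Of those bases, 100% lie within exons of Peg3 as given by GENCODE mouse M21. The strandedness of the counting was not given, so reads of Peg3os and Peg3 cannot be told apart with certainty. The mean log2 value over the 24 libraries was 8.31 for Peg3os and 3.07 for Peg3. Whether reads of Peg3 were counted in the Peg3os row was not tested, so the Peg3 row may not give the level of its RNA.

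The sequences at the start sites of the Peg3 cluster are shown because Zim1 and Peg3os, its members with the widest differences between groups here, lie next to Peg3 in the order Zim2, Zim1, Peg3, Peg3os, Usp29. The Mest promoter is shown beside them as a further control region of this set. Each window runs from 250 bases before to 50 bases after a RefSeq start site in build GRCm38.p6, and is written along the strand of the gene. The sequences are in lower case, with each CpG, the site of methylation, in capitals.
Zim1, chr7:6696383-6696682, minus strand: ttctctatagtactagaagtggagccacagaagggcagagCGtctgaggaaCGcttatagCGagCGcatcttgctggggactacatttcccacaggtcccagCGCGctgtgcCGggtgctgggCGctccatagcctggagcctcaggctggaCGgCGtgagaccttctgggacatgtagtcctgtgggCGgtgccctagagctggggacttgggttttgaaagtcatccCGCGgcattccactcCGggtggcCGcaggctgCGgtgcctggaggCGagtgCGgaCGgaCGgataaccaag
Peg3, chr7:6730370-6730669, minus strand: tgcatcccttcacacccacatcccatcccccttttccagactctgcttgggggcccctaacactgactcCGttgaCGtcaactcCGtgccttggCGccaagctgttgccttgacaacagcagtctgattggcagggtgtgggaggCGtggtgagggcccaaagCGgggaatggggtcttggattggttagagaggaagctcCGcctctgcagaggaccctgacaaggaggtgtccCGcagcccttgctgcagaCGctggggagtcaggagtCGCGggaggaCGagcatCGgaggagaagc
Mest, chr6:30737803-30738102, plus strand: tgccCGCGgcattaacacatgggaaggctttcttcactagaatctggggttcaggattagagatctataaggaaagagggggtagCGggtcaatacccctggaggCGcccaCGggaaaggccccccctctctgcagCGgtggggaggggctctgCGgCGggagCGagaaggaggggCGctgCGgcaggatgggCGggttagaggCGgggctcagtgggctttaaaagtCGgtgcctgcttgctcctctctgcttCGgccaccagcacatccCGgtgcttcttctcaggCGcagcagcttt
The windows hold 20, 13 and 17 CpG in the order shown, against a median of 7 over 32851 RefSeq windows of the same length. The hexamer TGCCGC, bound when methylated by the zinc finger protein ZFP57, which protects imprints, occurs 1 time in the Zim1 window, 2 times in the Mest window and 0 times in the Peg3 window, counting both strands. It occurs in 11.6% of all windows. The motif GCCATNTT of YY1 and the motif GGGGCGGGG of PLAGL1 occur in 6.1% and 11.4% of all windows and 0 times in these 3. A window was found for 6 of the 10 genes.

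Values are the deposited log2 values, read here as log2 with an offset near 1, which understates the changes of genes with low values such as Peg3, Zim1 and Plagl1. A gene was called where its adjusted p in limma (Benjamini-Hochberg over 17263 tested genes) was under 0.05. The mean of 9 brown adipocyte markers ran from 11.11 to 12.04 in TZP, 11.42 to 11.67 in LAGIPRA, 11.28 to 11.68 in PairFedVehicle and 10.996 to 11.58 in Vehicle libraries. Of these 9 markers 2, 3 and 4 were called higher in TZP, LAGIPRA and PairFedVehicle than in Vehicle and 0 lower, and their part in the differences from Vehicle was not tested. Pairs of libraries within a group had r of 0.927 to 0.972 over genes, which are not independent replicates. Libraries stood apart in 2 ways that touch these genes. The 10 skeletal muscle markers lay near 0 in PairFedVehicle 5, TZP 3 and Vehicle 1, with means of 0.585, 0.830 and 0.817, and reached means of up to 10.78 elsewhere. TZP 3 to 6 had lower values for genes with long transcripts, with slopes on log2 transcript length of -0.0642 to -0.165, against 0.0180 and 0.0199 in TZP 1 and 2 and 0.0143 to 0.0579 in Vehicle. A fit without TZP 3 to 6 keeps only TZP 1 and 2, and a covariate for the length slope overlaps in part with the TZP group. In bulk tissue, fewer cells of a type and less RNA per cell cannot be told apart.

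In the Peg3 cluster, the antisense RNA Peg3os and the zinc finger gene Zim1 had the same order of group means, with PairFedVehicle at the top, then Vehicle, LAGIPRA and TZP. Both were higher in all 6 PairFedVehicle libraries than in any TZP or LAGIPRA library. Peg3 itself, which encodes a zinc finger protein, had the same order of means with a much wider spread and was called in no comparison.

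Peg3os ran from 6.52 to 8.18 in TZP mice, with a median of 7.16. It ran from 7.42 to 8.32 in LAGIPRA mice (median 7.96), from 8.85 to 9.94 in PairFedVehicle mice (median 9.61) and from 8.12 to 8.77 in Vehicle mice (median 8.53). The PairFedVehicle libraries all lay above those of the other 3 groups, while TZP, LAGIPRA and Vehicle overlapped one another. The log2 difference from PairFedVehicle was -2.26 in TZP and -1.67 in LAGIPRA, with an SE of 0.26 for each Peg3os difference. The difference of PairFedVehicle from Vehicle was 1.09. Against Vehicle the difference was -1.17 in TZP and -0.58 in LAGIPRA, the second -0.30 with the length slope as a covariate.

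The TZP libraries did not behave alike for Peg3os. TZP 1 and 2 read 8.18 and 8.17, within the range of the Vehicle libraries, and TZP 3 to 6, those with the low slopes on transcript length, read 7.47, 6.52, 6.84 and 6.66. Without TZP 3 to 6, the log2 difference of TZP was -0.30 from Vehicle and -1.40 from PairFedVehicle, and that from LAGIPRA turned from -0.59 to 0.28. When the length slope entered the fit as a covariate, those 3 differences were -0.27, -1.62 and 0.031. Across 37 alternatives, LAGIPRA against PairFedVehicle stayed between -1.81 and -1.57, and PairFedVehicle against Vehicle between 1.02 and 1.35.

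Zim1 ran from 1.91 to 3.74 in TZP mice (median 2.92), from 2.75 to 4.01 in LAGIPRA mice (median 3.50), from 4.05 to 5.48 in PairFedVehicle mice (median 4.77) and from 2.69 to 4.41 in Vehicle mice (median 3.64). Every PairFedVehicle library lay above every TZP and LAGIPRA library, and 2 Vehicle libraries, at 4.16 and 4.41, reached into the PairFedVehicle range. Zim1 was lower in LAGIPRA than in PairFedVehicle by a log2 difference of -1.27 (SE 0.32, adjusted p = 0.0106), a call kept in all 36 alternatives in which it was tested. It was lower in TZP than in PairFedVehicle by -1.80 (SE 0.32, adjusted p = 0.000665). That call was lost without TZP 3 to 6, at -1.10 (adjusted p = 0.118), and with a larger offset on the log scale, near 8, the difference was -1.19.

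Zim1 was higher in PairFedVehicle than in Vehicle by 1.08 on the log2 scale (SE 0.32, adjusted p = 0.0357). This call was lost in 9 of 36 alternatives, with adjusted p of up to 0.0963. It ended when Vehicle 1, 3, 4 or 6 or PairFedVehicle 1, 3 or 6 was left out, with differences of 0.888, 1.05, 1.04, 1.11, 0.938, 1.04 and 1.02 in that order, and with the replicate number as a block. Against Vehicle, Zim1 differed by -0.72 in TZP (adjusted p = 0.107) and by -0.19 in LAGIPRA (adjusted p = 0.722), both within the spread. The TZP difference passed only without Vehicle 1 (-0.92, adjusted p = 0.0468). It was -0.01 (adjusted p = 0.988) without TZP 3 to 6, -0.22 (adjusted p = 0.825) with a length slope covariate and -0.41 (adjusted p = 0.136) with an offset near 8.

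Peg3 ran from 0.99 to 3.50 in TZP mice (median 2.68), from 1.56 to 3.35 in LAGIPRA mice (median 2.65), from 2.62 to 5.31 in PairFedVehicle mice (median 3.43) and from 2.20 to 4.03 in Vehicle mice (median 3.92). All groups overlapped. The within-group SD of 0.872 was larger than that of 96.9% of all genes, whose median SD was 0.26. The log2 differences were -0.93 for TZP and -0.90 for LAGIPRA against Vehicle (adjusted p = 0.168 and 0.202), and -1.09 and -1.06 against PairFedVehicle (adjusted p = 0.127 and 0.162), with an SE of 0.48. When the value of 1 read, a proxy of depth, entered the fit as a covariate, Peg3 passed for TZP against PairFedVehicle at -1.40 (adjusted p = 0.0459). The difference of Peg3 was -0.69 (adjusted p = 0.590) without TZP 3 to 6 and -0.62 (adjusted p = 0.115) with an offset near 8. For PairFedVehicle against Vehicle the difference was 0.16, with a 95% interval of -0.85 to 1.17.

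Markers of other cells also differed in TZP mice. Of 7 endothelial markers, 6 were lower in TZP than in Vehicle, where 10.3% of all genes were lower. Their mean ran from 6.90 to 7.43 in TZP libraries against 7.59 to 7.83 in Vehicle libraries. It was 7.43 in both TZP 1 and TZP 2, and 7.34, 7.27, 7.01 and 6.90 in TZP 3 to 6, the libraries with low length slopes. In TZP against PairFedVehicle 5 of 7 endothelial markers were lower, beside 8.02% of all genes, with PairFedVehicle means of 7.61 to 7.79. Of 6 pericyte and smooth muscle markers, 3 were lower in TZP than in Vehicle, as were all 5 erythroid markers. The pericyte and smooth muscle mean was 7.47 and 7.33 in TZP 1 and 2 and 6.93 to 7.24 in TZP 3 to 6. The erythroid mean was 10.43 and 10.32 in TZP 1 and 2 and 10.60 to 11.91 in TZP 3 to 6. The part of these markers in the differences of TZP was not tested, nor was that of the length slope in the marker values. In PairFedVehicle against Vehicle 1 of the 7 endothelial markers was higher and 1 lower, with means of 7.61 to 7.79 against 7.59 to 7.83. In LAGIPRA against PairFedVehicle 0 of the 7 were called.

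**Figure D1:**
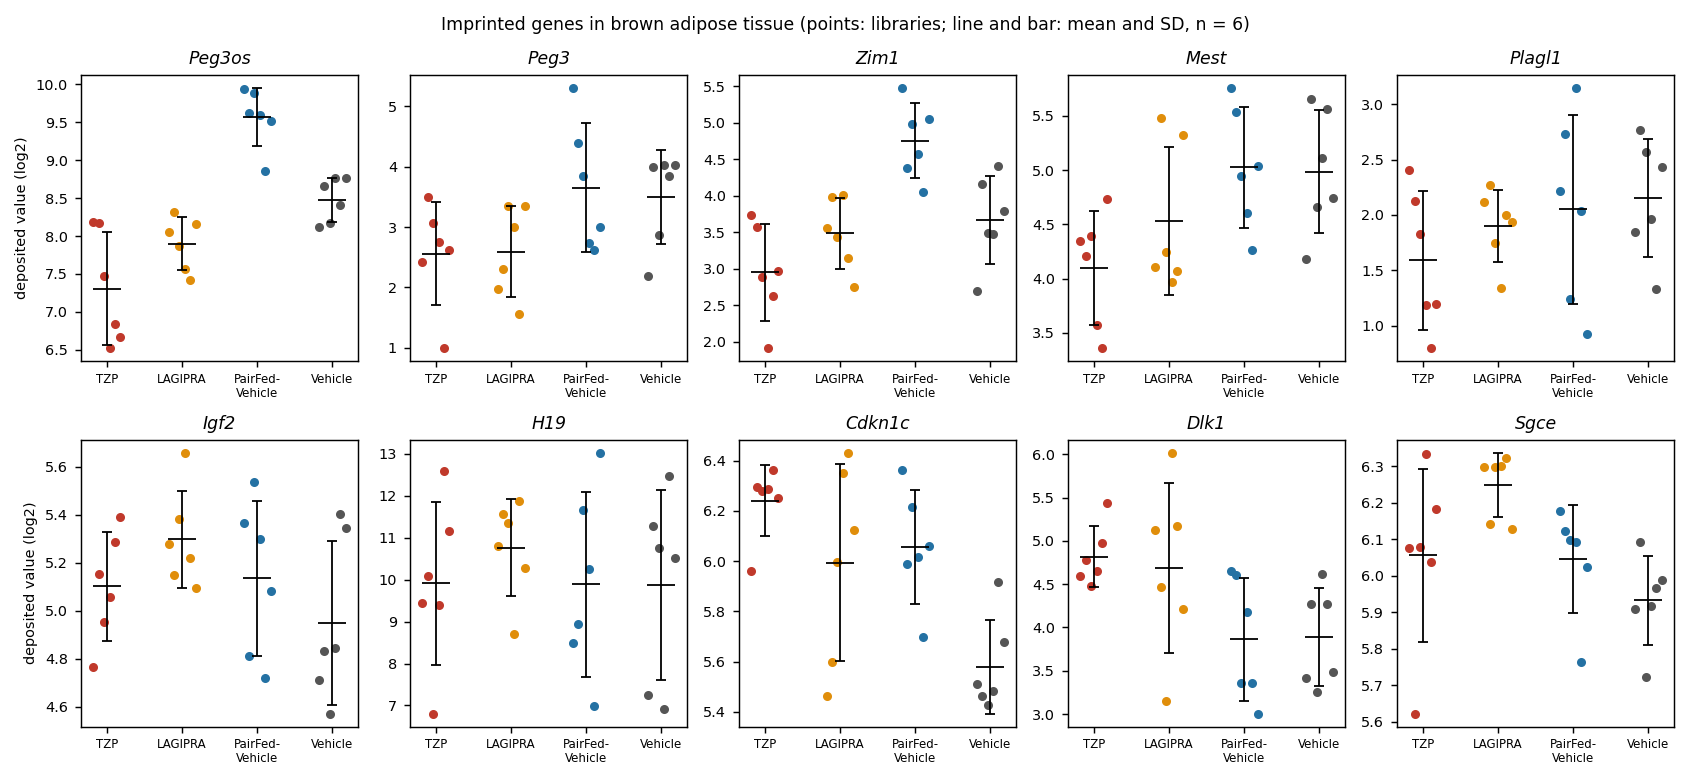
Deposited log2 value of each of the 10 imprinted genes (y axes, each with its own range) in TZP, LAGIPRA, PairFedVehicle and Vehicle mice. Points are libraries, and the line and bar give the mean and SD (n = 6). For Peg3os the 6 PairFedVehicle libraries, from 8.85 to 9.94, lie above all others, and H19 spreads from 6.81 to 13.02 within the groups.

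Mest, which encodes a protein of the alpha/beta hydrolase fold known in mice as a marker of growing white fat, had a lower mean in TZP mice than in both vehicle groups and just missed the threshold against each. It ran from 3.36 to 4.73 in TZP mice (median 4.28), from 3.97 to 5.48 in LAGIPRA mice (median 4.17), from 4.26 to 5.76 in PairFedVehicle mice (median 4.99) and from 4.18 to 5.66 in Vehicle mice (median 4.93). All groups overlapped. The log2 difference of TZP was -0.88 from Vehicle (SE 0.32, adjusted p = 0.0503) and -0.92 from PairFedVehicle (SE 0.32, adjusted p = 0.0507). The first passed in 11 and the second in 12 of 37 alternatives. Across those 37, the first lay between -1.10 and -0.68, with adjusted p of up to 0.388. The second lay between -1.13 and -0.71, with adjusted p of up to 0.34. Neither passed without TZP 3 to 6. Without TZP 6 the differences were -1.01 (adjusted p = 0.0376) and -1.05 (adjusted p = 0.0390). Without Vehicle 1 the first was -1.05, and without PairFedVehicle 5 the second was -1.08, and both passed. Leaving out LAGIPRA 2 or 6, PairFedVehicle 1 or 5 for the first or Vehicle 1, 2 or 5 for the second did not move the difference itself, and it passed at adjusted p of 0.0392 to 0.0494.

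Plagl1, a zinc finger transcription factor known to act on other imprinted genes in the mouse, had a mean below the filter of 2.86 and was not tested with the rest. It ran from 0.80 to 2.40 in TZP mice (median 1.51), from 1.34 to 2.27 in LAGIPRA mice (median 1.97), from 0.92 to 3.15 in PairFedVehicle mice (median 2.13) and from 1.33 to 2.77 in Vehicle mice (median 2.20). The groups overlapped throughout. With no filter the log2 difference of TZP from Vehicle was -0.56 (SE 0.345, adjusted p = 0.293), and the adjusted p of the 6 comparisons lay between 0.293 and 0.925.

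Cdkn1c, which encodes the cell cycle inhibitor p57, was higher in all 6 TZP libraries than in any Vehicle library. It ran from 5.96 to 6.36 in TZP mice (median 6.28), from 5.46 to 6.43 in LAGIPRA mice (median 6.06), from 5.70 to 6.36 in PairFedVehicle mice (median 6.04) and from 5.43 to 5.92 in Vehicle mice (median 5.50). LAGIPRA and PairFedVehicle overlapped with both other groups. The log2 difference of TZP from Vehicle was 0.66 (SE 0.14, adjusted p = 0.00327). A covariate for the length slope gave 0.45 (adjusted p = 0.233), and leaving out TZP 3 to 6 gave 0.55 (adjusted p = 0.129).

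Cdkn1c was also higher in PairFedVehicle than in Vehicle, by 0.48 on the log2 scale (SE 0.14, adjusted p = 0.0392). That call was lost in 15 of 37 alternatives. It ended when any of Vehicle 1, 2, 3, 4 or 6 was left out (0.447 to 0.497) or any of PairFedVehicle 1, 2, 3, 4 or 6 (0.415 to 0.491), with adjusted p of up to 0.101. The LAGIPRA difference of 0.41 from Vehicle missed the threshold (SE 0.14, adjusted p = 0.0552) and passed in 7 of 37 alternatives, among them without Vehicle 5 (0.482), LAGIPRA 1 (0.520) or LAGIPRA 2 (0.493), and at an unmoved 0.414 without PairFedVehicle 1 or 5. A 1-read covariate lowered it to 0.28 (adjusted p = 0.370). Against PairFedVehicle, Cdkn1c differed by 0.18 in TZP (95% interval -0.11 to 0.48) and by -0.06 in LAGIPRA (95% interval -0.36 to 0.24).

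Dlk1, a membrane protein that holds back the maturing of fat cell precursors and is also called preadipocyte factor, had higher means in both drug groups than in both vehicle groups, but was called in no comparison. It ran from 4.47 to 5.44 in TZP mice (median 4.71), from 3.15 to 6.02 in LAGIPRA mice (median 4.80), from 3.01 to 4.66 in PairFedVehicle mice (median 3.77) and from 3.26 to 4.62 in Vehicle mice (median 3.88). The LAGIPRA libraries covered almost the whole range, and LAGIPRA 3, at 3.15, was the lowest of them. The log2 difference of TZP was 0.93 from Vehicle (SE 0.38, adjusted p = 0.0797) and 0.96 from PairFedVehicle (adjusted p = 0.0870). That of LAGIPRA was 0.80 from Vehicle (adjusted p = 0.147) and 0.83 from PairFedVehicle (adjusted p = 0.164). Without LAGIPRA 3 these 4 differences were 0.93, 0.96, 1.11 and 1.14, and all passed, with adjusted p of 0.0446, 0.0488, 0.0386 and 0.0345. A length slope covariate lowered the TZP differences to 0.48 from Vehicle (adjusted p = 0.656) and 0.63 from PairFedVehicle (adjusted p = 0.484), and a 1-read covariate lowered that of LAGIPRA from Vehicle to 0.51 (adjusted p = 0.546). With only the 2 groups fitted, TZP against Vehicle passed at an unmoved 0.93 (adjusted p = 0.0314). Of 9 tested markers of adipocyte progenitors and fibroblasts, 0 were higher and 2 lower in TZP than in Vehicle (11.7% and 10.3% of all genes). In LAGIPRA against Vehicle 0 were higher and 1 lower (8.70% and 5.03%). Against PairFedVehicle 0 were higher and 0 lower in TZP (8.39% and 8.02%), and 0 higher and 1 lower in LAGIPRA (7.30% and 4.55%). The part of these cells in the Dlk1 values was not tested.

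Sgce, which encodes epsilon-sarcoglycan and shares its start region with Peg10, was higher in all 6 LAGIPRA libraries than in any Vehicle library. It ran from 5.62 to 6.33 in TZP mice (median 6.08), from 6.13 to 6.32 in LAGIPRA mice (median 6.30), from 5.76 to 6.18 in PairFedVehicle mice (median 6.10) and from 5.72 to 6.09 in Vehicle mice (median 5.94). The spread was small, with a within-group SD of 0.159. The log2 difference of LAGIPRA from Vehicle was 0.31 (SE 0.094, adjusted p = 0.0311). The call was lost in 10 of 37 alternatives, among them without Vehicle 1, 3 or 6 (0.310, 0.273 and 0.326) and without LAGIPRA 3, 4 or 5 (0.305, 0.304 and 0.300). The TZP and PairFedVehicle differences from Vehicle were 0.12 (adjusted p = 0.371) and 0.11 (adjusted p = 0.521).

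Igf2, a fetal growth factor that acts through the IGF1 receptor, was called in no comparison. It ran from 4.76 to 5.39 in TZP mice (median 5.11), from 5.10 to 5.66 in LAGIPRA mice (median 5.25), from 4.72 to 5.54 in PairFedVehicle mice (median 5.19) and from 4.57 to 5.40 in Vehicle mice (median 4.84). All groups overlapped. The log2 difference of LAGIPRA from Vehicle was 0.35 (SE 0.16, adjusted p = 0.134). It passed only without Vehicle 5, at 0.436 (adjusted p = 0.0488). In TZP and PairFedVehicle it was 0.15 and 0.18, with 95% intervals of -0.18 to 0.48 and -0.14 to 0.51.

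H19, a noncoding RNA from the same cluster as Igf2 and the host of the microRNA gene Mir675, varied more among mice of a group than between groups. It ran from 6.81 to 12.58 in TZP mice (median 9.77), from 8.70 to 11.87 in LAGIPRA mice (median 11.08), from 6.98 to 13.02 in PairFedVehicle mice (median 9.60) and from 6.91 to 12.47 in Vehicle mice (median 10.63). Its within-group SD of 1.94 exceeded that of 99.6% of all genes. The log2 differences between groups ran from -0.85 to 0.90 with an SE of 1.05, and the adjusted p of all 6 comparisons was between 0.586 and 0.993. The 95% interval for TZP against Vehicle, -2.14 to 2.24, leaves room for large differences in either direction.

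The H19 level moved with the skeletal muscle markers of a library. The slope of H19 on the mean of the 10 markers, with group means fitted, was 0.57 per log2 unit (SE 0.053, adjusted p = 5.44e-08 in limma), where 1.69% of all genes were called for such a slope. Of the 7 other genes tested, Peg3os apart, 0 were called, with slopes of -0.000115 for Dlk1 to 0.0769 for Zim1. Leaving out each library in turn gave 0.544 to 0.619. Without PairFedVehicle 5, TZP 3 and Vehicle 1, the 3 libraries in which the markers were near 0, the slope was 0.994 (SE 0.046, adjusted p = 2.15e-12), a library set chosen after the data were seen. H19 in those 3 libraries was 6.98, 6.81 and 7.25, and in Vehicle 4, next in muscle markers with a mean of 4.49, it was 6.91. The highest muscle mean, 10.78 in PairFedVehicle 6, came with the highest H19 value, 13.02.

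With the muscle mean as a covariate, the H19 differences shrank to between -0.18 and 0.06, with SE of 0.43 to 0.44, and none passed (adjusted p = 0.83 to 0.965). Over the 21 libraries with muscle markers well above 0, they lay between -0.26 and 0.07 with SE of 0.19, and again none passed (adjusted p = 0.383 to 0.936). The row of Mir675, whose hairpin lies within H19, read 6.83 in PairFedVehicle 6 and 0.676 in TZP 3, the highest and lowest libraries for H19. Whether these values count reads of the host RNA was not tested. Brown adipose tissue between the shoulders lies against skeletal muscle, and whether muscle was taken along in the dissection was not tested.

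**Figure D2:**
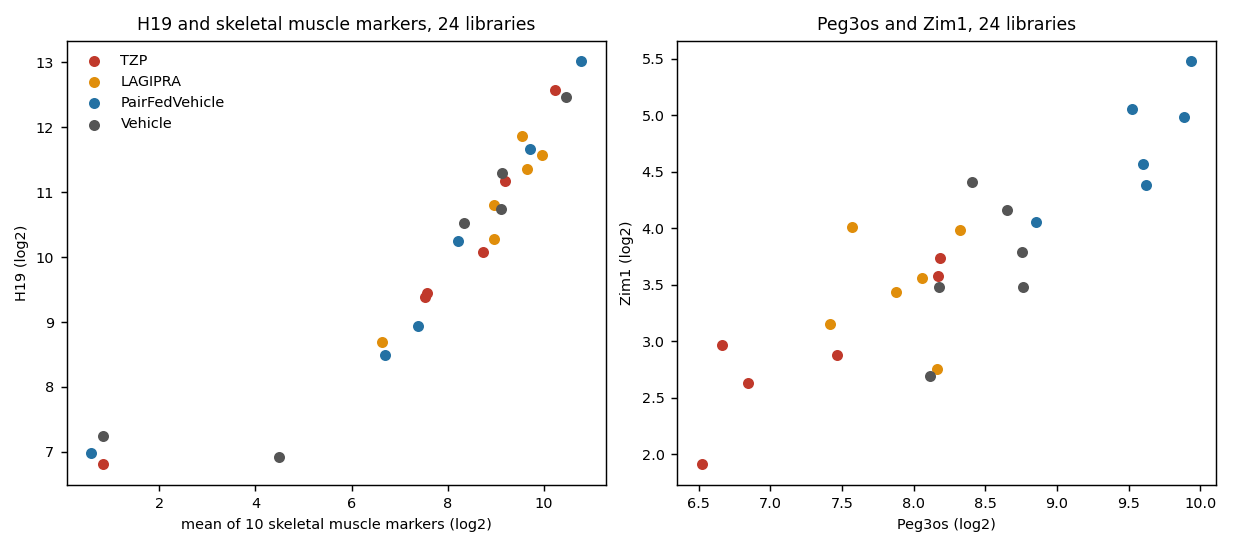
Left, H19 (y axis, deposited log2 value) against the mean of 10 skeletal muscle markers (x axis, log2) in 24 libraries, coloured by group. Right, Zim1 (y axis) against Peg3os (x axis). H19 stays at 6.81 to 7.25 in the 4 libraries with a muscle mean under 5 and climbs to 13.02 at the highest mean, with all 4 groups along the same course.

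The called genes were counted in each comparison beside the share of all genes called. Peg3os is left out of these counts, and 8 of the other 9 genes passed the filter on low values. In TZP against Vehicle, 1 of 8 was higher (Cdkn1c) and 0 lower, where 11.7% of all genes were higher and 10.3% lower. In LAGIPRA against Vehicle, 1 was higher (Sgce) and 0 lower, where 8.70% of all genes were higher and 5.03% lower. In PairFedVehicle against Vehicle, 2 were higher (Zim1 and Cdkn1c) and 0 lower, where 4.96% of all genes were higher and 3.66% lower. In TZP against PairFedVehicle, 0 were higher and 1 lower (Zim1), where 8.39% of all genes were higher and 8.02% lower. In LAGIPRA against PairFedVehicle, 0 were higher and 1 lower (Zim1), where 7.30% of all genes were higher and 4.55% lower. Counted in either direction, 1 of 8 is 12.5%, beside 22%, 13.7%, 16.4% and 11.9% of all genes for TZP and LAGIPRA against Vehicle and against PairFedVehicle, and 2 of 8 is 25%, beside 8.61% for PairFedVehicle against Vehicle. In TZP against LAGIPRA, limma called 0 of 8, 0 had an unadjusted p under 0.05, and 0.0521% of all genes were higher and 0.348% lower.

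Groups whose samples did not overlap were counted in the same way. In TZP against Vehicle this held for 1 of the 8 genes, Cdkn1c, which was higher, and for 3.39% of all genes higher and 2.05% lower. In LAGIPRA against Vehicle it held for Sgce, which was higher, and for 3.16% of all genes higher and 1.49% lower. In PairFedVehicle against Vehicle it held for 0 of the 8 and for 2.41% of all genes higher and 2.35% lower. Zim1 was lower with no overlap in TZP against PairFedVehicle (3.17% of all genes higher, 1.76% lower) and in LAGIPRA against PairFedVehicle (3.70% higher, 2.15% lower). In TZP against LAGIPRA 0 of the 8 stood apart (0.353% higher, 0.458% lower). The comparisons share their control libraries, so calls of 1 gene in several of them are not separate evidence.

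**Figure D3:**
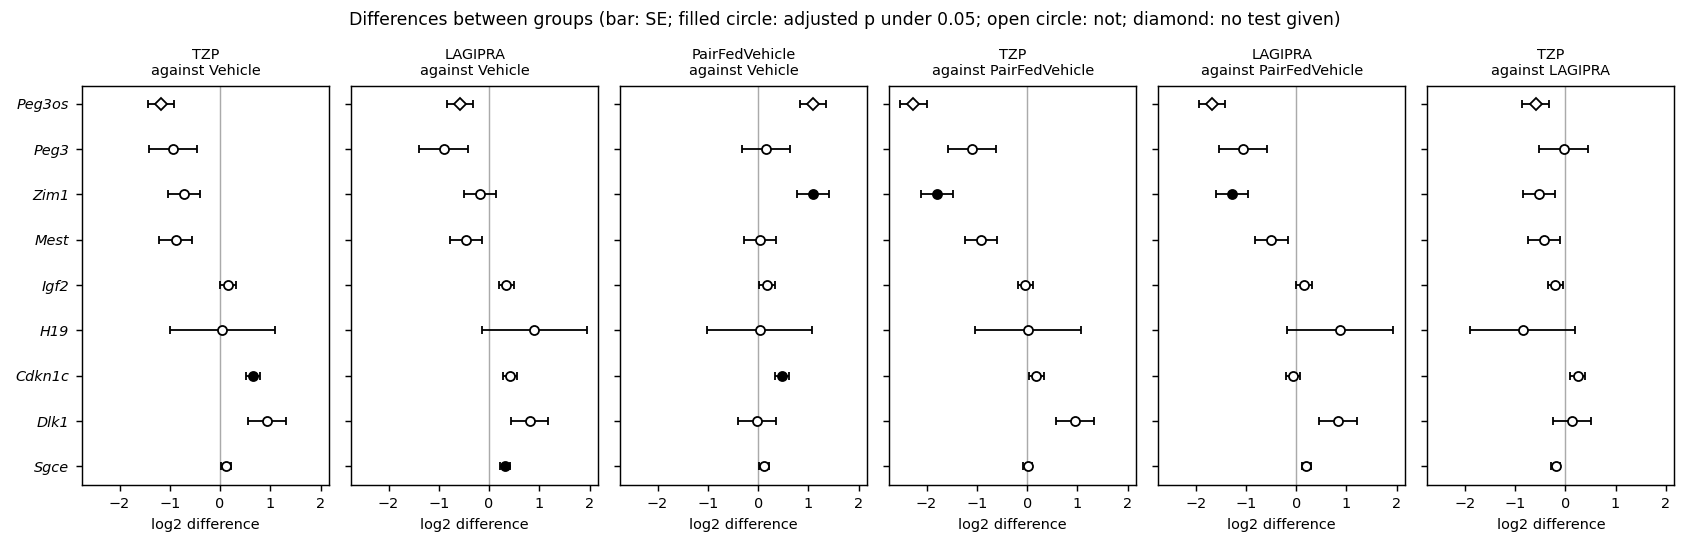
Log2 difference (x axes) with its SE for 9 of the imprinted genes (rows) in the 6 comparisons. Filled circles had an adjusted p under 0.05, open circles did not, and diamonds mark Peg3os, for which no test is given. Zim1 lies at -1.80 and -1.27 in the comparisons with PairFedVehicle and at 1.08 for PairFedVehicle against Vehicle.

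Among mice of the same group, few of these genes varied together. Over the 24 libraries with group means removed, 45 pairs were compared by permutation within groups. The 9 pairs with Peg3os entered the adjustment over all 45 and are given by their correlations only. Of the other 36, 4 had an unadjusted p under 0.05, 0 passed on Pearson's r and 1 passed on Spearman's rho after Benjamini-Hochberg adjustment. The pair that passed was Igf2 and Cdkn1c, on neighbouring parts of one chromosome, with r = 0.589 (permutation p = 0.00118, adjusted p = 0.051) and rho = 0.652 (permutation p = 0.00094, adjusted p = 0.0423). Without the 2 libraries farthest from the median r was 0.522.

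In the Peg3 cluster, Peg3os and Zim1 gave r = 0.625 and rho = 0.570, and r = 0.487 without the 2 farthest libraries. Both had their highest TZP values in TZP 1 and 2, at 8.18 and 8.17 for Peg3os and 3.74 and 3.58 for Zim1. TZP 3 to 6, with the low length slopes, read 6.52 to 7.47 and 1.91 to 2.97. The length slope was not removed from this or any other pair, and its part in them was not tested. Peg3 and Peg3os gave r = 0.494 and rho = 0.561. Peg3 and Zim1 gave r = 0.408 and rho = 0.301 (adjusted permutation p = 0.279 and 0.493). Across clusters, Peg3 and Mest gave r = 0.627 (permutation p = 0.00252, adjusted p = 0.051) and rho = 0.604 (adjusted permutation p = 0.0614). Igf2 and H19 gave r = 0.402 and rho = 0.402 (adjusted permutation p = 0.325 and 0.303), and r = 0.040 once the muscle mean was also removed.

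The genes most like Peg3os across the 24 libraries, by Pearson's r of the deposited values as a description, were Gm5859 (r = 0.885), Gm29801 (0.883), Akap8 (0.878), Gm29804 (0.877) and LOC102637606 (0.876), of 17262 ranked. Their likeness holds the differences between groups, and with group means removed r was 0.763 to 0.882. The length slope was not removed there either. RefSeq lists Gm5859, Gm29801 and Gm29804 as transcribed pseudogenes on chromosome 4. Gm5859 and Gm29801 differed by at most 0.095 in any library, so their reads may be shared between near-identical copies. Akap8 encodes an anchoring protein of the nucleus for protein kinase A. Zim1 ranked 10 in this order (r = 0.865), Mest 647 (r = 0.653) and Peg3 872 (r = 0.621).

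Gm29804, a further row that peaked under pair feeding, had means of 7.08 in TZP, 6.96 in LAGIPRA, 8.34 in PairFedVehicle and 7.24 in Vehicle. LOC102637606 had means of 6.62, 6.40, 7.87 and 6.71 in the same groups. The means of Akap8 stayed within 5.60 to 5.97.

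A wider list of 65 other mouse imprinted genes had 54 with a row and 41 tested. The values do not tell the parental copies apart, so whether each gene is imprinted in brown fat was not tested. In TZP against Vehicle 4 were higher and 5 lower, 22% of the list beside 22% of all genes. In LAGIPRA against Vehicle 4 were higher and 1 lower, 12.2% of the list beside 13.7% of all genes. In PairFedVehicle against Vehicle 6 were higher and 1 lower, 17.1% beside 8.61%. In TZP against PairFedVehicle 4 were higher and 7 lower, 26.8% beside 16.4%. In LAGIPRA against PairFedVehicle 5 were higher and 3 lower, 19.5% beside 11.9%. In TZP against LAGIPRA limma called 0 of 41, and 5 had an unadjusted p under 0.05. In the first 5 of these comparisons the median log2 difference of the list was 0.04, 0.09, 0.02, -0.04 and -0.03, beside 0.04, 0.03, 0.02, -0.0024 and -0.01 over all genes. Of the 41, 20 were called in at least 1 comparison, 48.8% beside 39.1% of all genes. These shares are descriptions, with no test of the list.

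Ndn, which encodes necdin, a paternally expressed protein known in mice to hold back fat cell formation, went the opposite way to Peg3os and Zim1. It ran from 10.76 to 10.98 in TZP mice, from 11.04 to 11.34 in LAGIPRA mice, from 9.74 to 10.45 in PairFedVehicle mice and from 10.54 to 10.84 in Vehicle mice. The PairFedVehicle libraries lay below all others and the LAGIPRA libraries above all others. Ndn was higher than in PairFedVehicle by 0.99 in LAGIPRA (SE 0.086, adjusted p = 1.56e-07) and by 0.70 in TZP (adjusted p = 1.18e-05). It was lower in PairFedVehicle than in Vehicle, by -0.52 (adjusted p = 0.000435), and higher in LAGIPRA than in Vehicle, by 0.47 (adjusted p = 0.00514). The last call was lost when the value of 1 read entered the fit (0.433, adjusted p = 0.0707); the other 3 passed in all 37 alternatives.

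In the cluster of Ndn, the joint transcript of Snrpn and Snurf, whose reads cannot be split with certainty, was also higher than in PairFedVehicle. Snrpn differed by 0.43 in TZP (adjusted p = 0.00903) and 0.45 in LAGIPRA (adjusted p = 0.00804), and Snurf by 0.39 and 0.42. The LAGIPRA calls passed in all 37 alternatives. Those of TZP were lost without TZP 3 to 6, at 0.400 and 0.374 (adjusted p = 0.117 and 0.118).

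Peg13, a noncoding RNA within an intron of Trappc9, peaked under pair feeding. It ran from 10.82 to 11.55 in TZP mice, from 11.33 to 11.49 in LAGIPRA mice, from 11.70 to 11.93 in PairFedVehicle mice and from 11.32 to 11.54 in Vehicle mice. The PairFedVehicle libraries lay above all others. It was lower than in PairFedVehicle by -0.49 in TZP (adjusted p = 0.000633) and -0.35 in LAGIPRA (adjusted p = 0.00947), and higher in PairFedVehicle than in Vehicle by 0.34 (adjusted p = 0.0141). Without TZP 3 to 6 the TZP difference was -0.24 and still passed (adjusted p = 0.0430). Its host Trappc9, which encodes a subunit of a trafficking complex, went the other way, higher than in PairFedVehicle by 0.35 in TZP and 0.50 in LAGIPRA (adjusted p = 0.00919 and 0.000698). Nap1l5, an intronless gene read from the paternal copy, was higher in PairFedVehicle than in Vehicle by 0.64 (adjusted p = 0.000426). It was lower in LAGIPRA than in PairFedVehicle by -0.46 (adjusted p = 0.00583) and in TZP by -0.38 (adjusted p = 0.0170). The TZP call on Nap1l5 was lost without TZP 3 to 6 (-0.284, adjusted p = 0.284).

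Igf2r, the receptor that clears IGF2 from the cell surface, was lower in TZP than in Vehicle by -1.26 (SE 0.20, adjusted p = 0.000659) and in LAGIPRA than in Vehicle by -0.85 (adjusted p = 0.0126). It ran from 5.01 to 6.21 in TZP mice, from 5.65 to 6.46 in LAGIPRA mice, from 5.94 to 6.53 in PairFedVehicle mice and from 6.16 to 7.41 in Vehicle mice. The LAGIPRA call on Igf2r was lost with a 1-read covariate, at -0.88 (adjusted p = 0.0967). Grb10, an adaptor that dampens insulin signalling, was lower in TZP than in Vehicle by -0.97 (SE 0.21, adjusted p = 0.00320) with no overlap. Rtl1, from the Dlk1 cluster, was lower in TZP than in Vehicle by -1.12 (adjusted p = 0.0149), and Inpp5f by -0.54 (adjusted p = 0.00570). The Rtl1 difference was -2.25 without TZP 3 to 6 (adjusted p = 0.0021) and -2.39 with a length slope covariate (adjusted p = 0.00119), and its call was lost with a 1-read covariate (-0.85, adjusted p = 0.110) and with only the 2 groups fitted (adjusted p = 0.0648). Peg10, beside Sgce, was lower by -1.47 (adjusted p = 0.0420), and this call was lost when any Vehicle library or TZP 4, 5 or 6 was left out (-1.53 to -1.25). Without TZP 3 to 6 the differences of Igf2r, Grb10, Inpp5f and Peg10 were -0.74, -0.36, -0.29 and -0.44, and none passed (adjusted p = 0.0778, 0.222, 0.233 and 0.725).

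Higher in TZP than in Vehicle were Gnas, the stimulatory G protein subunit downstream of the GIP and GLP-1 receptors, by 0.35 (adjusted p = 0.0105), the transporter gene Slc22a2 by 0.84 (adjusted p = 0.0123), H13 by 0.19 (adjusted p = 0.00698) and Mcts2, a retrogene within H13, by 0.37 (adjusted p = 0.00429). Gnas was also higher in LAGIPRA by 0.43 (adjusted p = 0.00920) and in PairFedVehicle by 0.34 (adjusted p = 0.0228), the last call being lost without Vehicle 6 (0.311) or PairFedVehicle 1 (0.263). A 1-read covariate ended the Gnas calls of TZP and LAGIPRA against Vehicle, at 0.25 and 0.31 (adjusted p = 0.0972 and 0.134). Slc22a2 was higher in LAGIPRA by 0.76 (adjusted p = 0.0323) and in PairFedVehicle by 0.96 (adjusted p = 0.0103). The LAGIPRA call on Slc22a2 was lost without Vehicle 1, 2, 3 or 6 or LAGIPRA 4, 5 or 6 (0.663 to 0.752). With a 1-read covariate the Slc22a2 calls of TZP and LAGIPRA were lost, at 0.67 and 0.58 (adjusted p = 0.0845 and 0.254). Gpr1, a chemerin receptor, was lower in LAGIPRA than in PairFedVehicle by -1.40 (SE 0.31, adjusted p = 0.00397), with no overlap, and by -0.77 with an offset near 8. With the length slope as a covariate the TZP calls of Gnas, Slc22a2, H13 and Mcts2 against Vehicle were lost, at 0.41, 0.66, 0.22 and 0.46 (adjusted p = 0.121, 0.289, 0.0902 and 0.0606). The differences of Gnas, H13 and Mcts2 were larger there than in the main fit. Their SE were 0.139, 0.064 and 0.120 in place of 0.094, 0.046 and 0.083. That covariate left 144 of all genes higher and 59 lower, in place of 2021 and 1784.

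The list held further calls. In TZP against PairFedVehicle, Igf2r (-0.72), Nnat (-0.66), Inpp5f (-0.50), Slc22a3 (-0.39) and Zrsr1 (-0.35), a retrogene within Commd1, were lower with adjusted p of 0.0111 to 0.0432. Without TZP 3 to 6 these differences were -0.19, -0.58, -0.24, -0.17 and -0.23, and none passed. Zrsr1 and H13 were higher in PairFedVehicle than in Vehicle, by 0.33 and 0.17 (adjusted p = 0.0342 and 0.0226), Trappc9 in LAGIPRA than in Vehicle by 0.28 (adjusted p = 0.0413), and Nap1l4 in LAGIPRA than in PairFedVehicle by 0.19 (adjusted p = 0.0425). Each of these 4 calls was lost when some single library was left out, any of 6, 3, 8 and 10 libraries in that order.

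**Figure D4:**
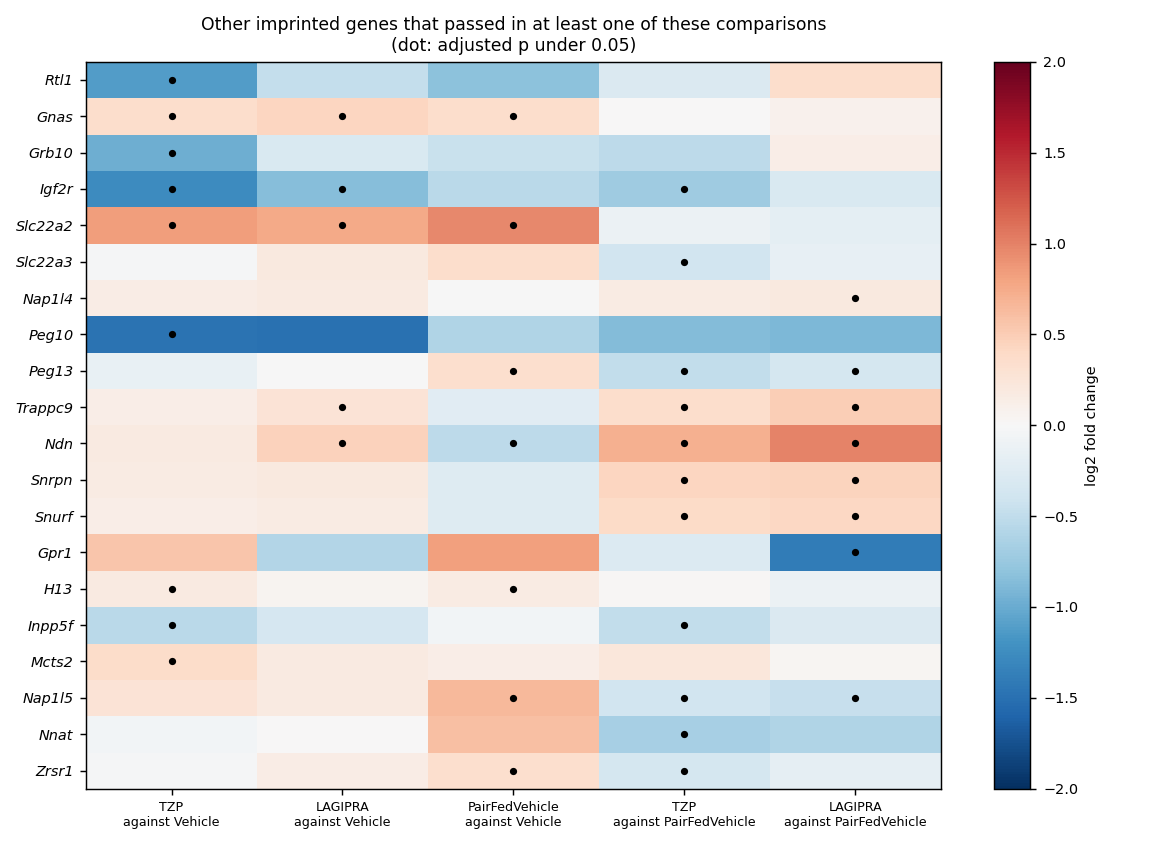
Log2 difference (colour scale) of 20 other imprinted genes (rows) in 5 comparisons (columns). A dot marks an adjusted p under 0.05. Ndn is higher in both drug groups than in PairFedVehicle, by 0.70 and 0.99, while Peg13 and Nap1l5 are lower there.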

How the data were processed

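Per the labels, TRIzol and a lipid tissue kit were used to extract RNA, and polyA RNA was sequenced. Cutadapt 1.9.1 and GSNAP 2013-11-27 are named in the submitters' processing notes. The build, the annotation, the counting tool and its strand setting are not given in the sources used here. What the authors deposited is a single table of log2 values with near-equal quantiles (25% quantile 2.88 to 2.95); that scale was inferred from the values, so read depth is unknown. The members and lists were chosen with earlier results of these data known.

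The 25% of genes with the lowest mean (5754, below 2.86) were left out. Tests used limma 3.58.1 in R 4.3.3, 1 mean per group over all 24 samples and a mean-variance trend, two-sided. Named were all members, up to 5 other imprinted genes per direction and comparison with the smallest p, and the 5 genes most like Peg3os. Slc22a3 and Nnat (TZP against PairFedVehicle) and Zrsr1 (PairFedVehicle against Vehicle) fell outside this rule and were named after their values were seen. Of the 65 other imprinted genes, 11 had no matching symbol and were not analysed here. On simulated data with 17263 genes tested, 77% of 200 genes changed by a log2 of 1 were recovered for TZP against Vehicle. Of the genes called there, 4.94% were false calls. The simulated noise was independent for each gene, so it held no length slope differences between libraries. Recovery was taken over tested genes of all spreads, with a median within-group SD of 0.26. The SD was 0.573 to 1.94 for Zim1, Mest, Dlk1, Peg3 and H19 and 0.159 to 0.28 for Sgce, Cdkn1c and Igf2. Recovery at those spreads was not counted apart, so 77% does not hold for each of these genes. Pairs used 100000 permutations. Promoter windows came from RefSeq (GRCm38.p6), and transcript lengths (88.6% of tested genes) and the exons of Peg3 from GENCODE mouse M21. Alternatives changed the filter, offset, normalization, variance model, samples, covariates and replicate block. Python 3.11.15 was used elsewhere.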

Additional observations from a re-analysis of the deposited data

Results flagged for a closer look

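Among 40 groups of 6 libraries (10 genes in 4 groups) checked for a library far from the others, 2 were found, where chance gives about 1 in 20. Cdkn1c in TZP 1 was 5.96, below the other TZP libraries, the nearest of which was 6.25; that gap is 0.728 of the range of the group. Sgce in PairFedVehicle 5 was 5.76, below the nearest PairFedVehicle library at 6.02, a gap of 0.633 of the range. PairFedVehicle 5 is a library with skeletal muscle markers near 0.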

How the results depend on the processing

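The labels do not say whether the replicate numbers pair the samples. Deviations of same-numbered libraries correlated at -0.602 to 0.378 (median -0.000378, 36 pairs). Those of different numbers correlated at -0.566 to 0.644 (median 0.00428, 180 pairs). No deviation shared by number was seen, which cannot tell whether samples were paired by design. With the replicate block, the imprinted genes other than Peg3os called were 2 for TZP against Vehicle, 0 for PairFedVehicle against Vehicle and 2 for TZP against PairFedVehicle, in place of 1, 2 and 1.

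Under the alternatives below, the numbers of all genes called changed too, as given in part here and in the next paragraph. With the lowest 50% left out, 1774 of 11509 genes were higher and 1284 lower in TZP against Vehicle. In LAGIPRA against Vehicle they were 1485 and 868. The other changed counts of these 8 genes were as follows. For TZP against Vehicle, 2 were called with the lowest 50% left out, sample weights, only the 2 groups compared, a skeletal muscle covariate, or without the 3 libraries lowest in muscle markers, and 0 with the length slope covariate or without TZP 3 to 6. All genes called were 2362 higher and 2210 lower with sample weights and 1403 and 1104 with only the 2 groups. They were 2007 and 1777 with the muscle covariate and 1455 and 1421 without the 3 low-muscle libraries. For LAGIPRA against Vehicle, 2 of the 8 were called with the lowest 50% left out or sample weights, and 0 with the muscle, length slope or 1-read covariate or without the 3 low-muscle libraries. All genes called were 1648 higher and 1131 lower with the length slope covariate and 856 and 379 without the 3 low-muscle libraries. For PairFedVehicle against Vehicle, 1 of the 8 was called with no filter, the lowest 50% left out, the length slope or 1-read covariate, or without the 3 low-muscle libraries or TZP 3 to 6. All genes called were 836 higher and 616 lower of 23017 with no filter. They were 781 and 549 of 11509 with the lowest 50% left out. The 1-read covariate gave 802 and 783, and leaving out the 3 low-muscle libraries gave 653 and 490. For TZP against PairFedVehicle, 2 of the 8 were called with sample weights, the muscle or 1-read covariate or without the 3 low-muscle libraries, and 0 without TZP 3 to 6. All genes called were 1583 higher and 1827 lower with sample weights and 1451 and 1406 with the muscle covariate. They were 1177 and 1618 with the 1-read covariate and 1144 and 1083 without the 3 low-muscle libraries. For LAGIPRA against PairFedVehicle, 0 of the 8 were called with the lowest 50% left out, which drops Zim1, where all genes called were 1173 higher and 788 lower.

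Of the 41 other imprinted genes, TZP against Vehicle gave 1 with the length slope covariate, 5 with the 1-read covariate and 3 without TZP 3 to 6. Among all 17263 genes, those settings gave 144 higher and 59 lower, 803 and 1683, and 544 and 273, in place of 2021 and 1784. LAGIPRA against Vehicle gave 8 with sample weights, only the 2 groups or without TZP 3 to 6, 3 with the muscle covariate or without the 3 low-muscle libraries, and 0 with the 1-read covariate. For all genes that comparison had 2608 higher and 2175 lower with sample weights, in place of 1502 and 868. It had 1044 and 432 with the muscle covariate, and 25 and 20 with the 1-read covariate. PairFedVehicle against Vehicle gave 11 with the length slope covariate or without TZP 3 to 6, and TZP against PairFedVehicle gave 4 under either. All genes called in the first were 990 higher and 663 lower, and 992 and 887, in place of 856 and 631. In the second they were 671 and 314, and 698 and 329, in place of 1448 and 1384. TZP against LAGIPRA gave 3 with sample weights and 1 with the 1-read covariate or without TZP 3 to 6. Those settings called 115 of all genes higher and 956 lower, 24 and 244, and 0 and 2, in place of 9 and 60. With the muscle mean removed, 3 pairs of genes passed on Pearson's r in place of 0.

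Leaving out each library in turn gave 1 to 3, 0 to 3, 0 to 2, 1 to 2, 1 to 2 and 0 called genes of the 8 in the order of the 6 comparisons (TZP, LAGIPRA and PairFedVehicle against Vehicle, TZP and LAGIPRA against PairFedVehicle, TZP against LAGIPRA), and 8 to 11, 3 to 7, 4 to 10, 8 to 13, 7 to 8 and 0 to 3 of the 41. The numbers of all genes called with single libraries left out are not given here, so these ranges stand without them. Reversed was Peg3os in TZP against LAGIPRA, at 0.031 with the length slope covariate and 0.276 without TZP 3 to 6. Of the values for single genes and pairs, 2109 were labelled unchanged, 162 lost and 40 gained a call. Those unchanged include Peg3os values and pairs without the 2 farthest libraries, both judged by the size of the shift with no test. The causes were not tested.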
